A study of Mus musculus with 6 samples.

Results

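Abcc9 and Kcnj8 encode the subunits of the ATP-sensitive potassium channel of blood vessel walls, and their RNA was measured in mLPS1, a line of mouse cells from dedifferentiated liposarcoma (a cancer of fat-forming cells). The pair was taken by symbol from the authors' deposited table of 1 comparison. Each symbol stands on 1 row, so the members are 2 of the table's 14472 genes. They were chosen from the same contrast that the table reports, and their own fold changes are therefore a description with no test.

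The series holds 6 libraries of total RNA from bulk cells, 3 labelled NICD Knockout and 3 labelled WT. NICD is the Notch intracellular domain, the part of a Notch receptor that is cut free on activation and works in the nucleus with Rbpj, a DNA-binding protein. Titles carry a p number of unstated meaning, which is 34, 36 and 39 in NICD Knockout libraries and 35, 37 and 40 in WT libraries. Notch over-expression is named in the series title while the genotype label says knockout, and the labels do not say whether an introduced Notch fragment is present in the WT line. The labels name 1 line per genotype and no treatment, and give no separate cultures, so the spread behind each p-value is that between libraries and may be technical. Every fold change below is NICD Knockout over WT, a direction taken from the name of the authors' table.

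The channel couples the energy state of a cell to its membrane voltage. Kcnj8 encodes the inward rectifier subunit that forms the potassium pore, and Abcc9 encodes the sulfonylurea receptor, an ABC protein that does not pump but senses nucleotides and gates that pore. ATP closes the channel and magnesium-bound ADP opens it. In smooth muscle cells and pericytes, its opening hyperpolarises the membrane and relaxes the vessel, and both genes are widely used as pericyte markers. The related genes Kcnj11 and Abcc8 encode the pore and receptor of the channel that controls insulin release.

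The 2 genes lie next to each other on chromosome 6, both on the minus strand, with no annotated gene between them in the GENCODE annotation of GRCm38. Their promoters are shown because the pair is lower together in NICD Knockout cells and because Rbpj binds DNA. The sequences are those of RefSeq on GRCm38.p6, from 250 bases before to 20 bases after the annotated start, read 5′ to 3′ on the minus strand. The Abcc9 stretch is chr6:142702255-142702524 and the Kcnj8 stretch is chr6:142571595-142571864. Some annotated transcripts of both genes begin elsewhere. Capitals mark TGGGAA, the core of the Rbpj motif.
Abcc9: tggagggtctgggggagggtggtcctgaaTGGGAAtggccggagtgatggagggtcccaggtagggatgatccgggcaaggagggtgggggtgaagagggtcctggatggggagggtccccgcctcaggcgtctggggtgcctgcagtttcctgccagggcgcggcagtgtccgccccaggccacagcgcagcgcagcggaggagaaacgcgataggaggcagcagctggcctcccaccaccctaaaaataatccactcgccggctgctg
Kcnj8: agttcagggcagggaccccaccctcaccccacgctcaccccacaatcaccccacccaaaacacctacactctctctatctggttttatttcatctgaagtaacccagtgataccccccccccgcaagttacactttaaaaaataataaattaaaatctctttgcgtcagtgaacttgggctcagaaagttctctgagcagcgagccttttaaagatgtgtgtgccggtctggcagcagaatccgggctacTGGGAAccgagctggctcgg

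Each promoter holds TGGGAA once on the gene's own strand and never on the other. Its first base is at -221 in Abcc9 and at the start base itself, position 1, in Kcnj8. These letters, or their reverse complement, occur in 25.6% of the 32851 RefSeq promoter windows of 300 bases, so a match in any one gene is common. The longer form GTGGGAA, which contains the core and occurs in 6.38% of windows, is in neither promoter. The E-box CACGTG, a motif of the Hey repressors found in 7.15% of windows, is in neither. GGAATG, the motif of Tead factors found in 14.7% of windows, is in the Abcc9 promoter at -219, where it overlaps the Rbpj core, and not in that of Kcnj8. The printed stretches differ in base composition, with 66.7% G or C in Abcc9 and 50.7% in Kcnj8.

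Abcc9 (ENSMUSG00000030249) was close to absent from NICD Knockout cells. Its fitted level was 3.67 normalised counts per library in NICD Knockout cells and 4390 in WT cells, computed from the authors' deposited table. That is a 1196-fold lower level, with a 95% Wald interval of 446.3-fold to 3204-fold, by the authors' deposited table (log2 fold change -10.22 with an SE of 0.73). The table gives no value per library, so whether all NICD Knockout libraries were low alike was not tested. In bulk RNA, fewer cells that make a transcript and less of it per cell cannot be told apart.

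Kcnj8 (ENSMUSG00000030247) was lower too, but from a far smaller amount of RNA. Its fitted level was 0.17 normalised counts per library in NICD Knockout cells and 24.9 in WT cells, from the authors' deposited table. Summed over 3 libraries this is 0.51 counts in NICD Knockout cells and 74.7 in WT cells, so the NICD Knockout total is below the floor of 3 counts. With NICD Knockout cells set at that floor, 1 normalised count per library, the fitted level of Kcnj8 was 24.9-fold lower. That value leaves out the error of the fit, and the near end of the interval of the fold change is 22.6-fold. The authors' deposited table gives a log2 fold change of -7.19 (SE 1.37, interval -9.89 to -4.50). Of 145 tested genes fitted below 1 normalised count in NICD Knockout cells, 58, Kcnj8 included, had a fitted level within 5% of that of Kcnj8. Their log2 fold changes by the authors' deposited table ran between -12.26 and -4.52, along the lower edge of the plot of fold change against mean. At 1 shared fitted level the fold change follows from the mean by arithmetic, so nothing is read from that edge. The lowest fitted NICD Knockout level of all tested genes was 0.16. The Kcnj8 fold change beyond the floor is not read, and how far the fit set its size was not tested.

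Over the whole table, 50.5% of 14470 tested genes passed an adjusted p of 0.05, 25.4% higher and 25.1% lower in NICD Knockout cells. Both members passed, but nothing is read from that count because the contrast chose them.

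**Figure D1:**
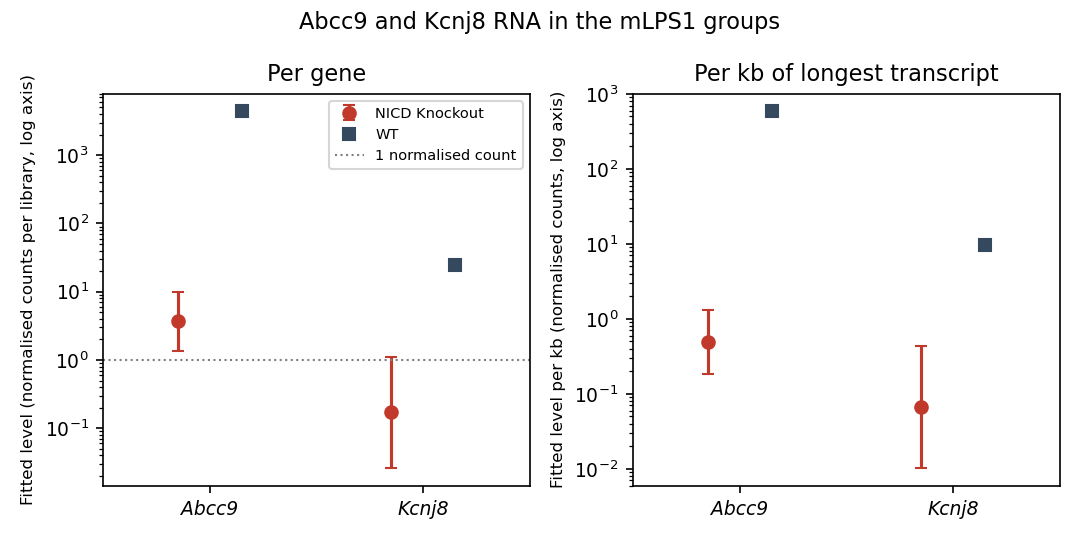
Fitted levels of Abcc9 and Kcnj8 in NICD Knockout (circles) and WT (squares) cells, in normalised counts per library on the left and per kb of the longest transcript on the right, both on log axes. Bars on the circles apply the 95% Wald interval of the fold change to a fixed WT level, and the dotted line is 1 normalised count. Both circles lie far below their squares, and the circle of Kcnj8, at 0.17, is under the dotted line.

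The subunits were unequal in amount in WT cells. Per kb of the longest annotated transcript (7499 bases for Abcc9, 2548 for Kcnj8), the fitted level was 585.4 normalised counts for Abcc9 and 9.77 for Kcnj8 in WT cells, computed from the authors' deposited table. Abcc9 thus had 59.9 times the level per kb of Kcnj8 in WT cells, and between 53.4 and 72.4 times with other long annotated transcripts. Assembled channels hold the subunits in equal number, as background, and RNA levels do not measure protein. On the same per-kb scale Abcc9 stood at the 82.8 percentile of all tested genes in WT cells, and Kcnj8 at the 20.2 percentile. In NICD Knockout cells the levels per kb were 0.49 for Abcc9 and 0.067 for Kcnj8, at the 1.33 and 0.228 percentiles. The Kcnj8 percentile in NICD Knockout cells comes from a level below the floor and is not read.

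Among 28 tested genes for potassium and calcium channels, their partners and related release channels, Abcc9 ranked 4 from the top per kb in WT cells. Only Cacnb3, Kcnab2 and Kcnmb1 were higher in that set, at 1286, 1141 and 813.5 normalised counts per kb in WT cells. Kcnj8 ranked 22 of 28 in WT cells, next to the background potassium channel gene Kcnk3 at 9.98 per kb. In NICD Knockout cells Abcc9 ranked 26 and Kcnj8 last, where the rank of Kcnj8 comes from a level below the floor and is not read. The levels per kb have no replicate spread here, so neighbours in this order are not shown to differ.

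By the authors' deposited table, 6 of 10479 genes with a mean of at least 100 had a log2 fold change below that of Abcc9. Among the 3289 genes whose mean lay within 2-fold of that of Abcc9, none was lower. Abcc9 was chosen from this contrast, so these places describe it and test nothing. It reached a mean of 100 through WT cells alone (4390 normalised counts, against 3.67 in NICD Knockout cells). The SE of Abcc9, 0.73, was above the SE of 99.6% of those 3289 genes, whose median was 0.13. Kcnj8 had 1481 genes within 2-fold of its mean, of which 7 were lower, and their median SE was 0.82 by the authors' deposited table. The place of Kcnj8 among them is not read, since its fitted NICD Knockout level is below the floor.

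Likeness of pattern can be measured in 1 contrast only. By log2 fold change among genes with a mean of at least 100, the 5 nearest to Abcc9 by the authors' deposited table were Tmem178 (-10.18), Olfr78 (-9.98), Olfr33 (-9.93), Gm45837 (-10.60) and the Notch target Heyl (-10.65). Tmem178 was also close in level, at 3.69 normalised counts in NICD Knockout cells and 4289 in WT cells. Olfactory receptor genes form a large family of related sequences, and whether reads were split among them was not tested. Olfr33 and Gm45837 were fitted below 1 normalised count in NICD Knockout cells. The same measure for Kcnj8 is not read, since its fitted NICD Knockout level is below the floor.

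**Figure D2:**
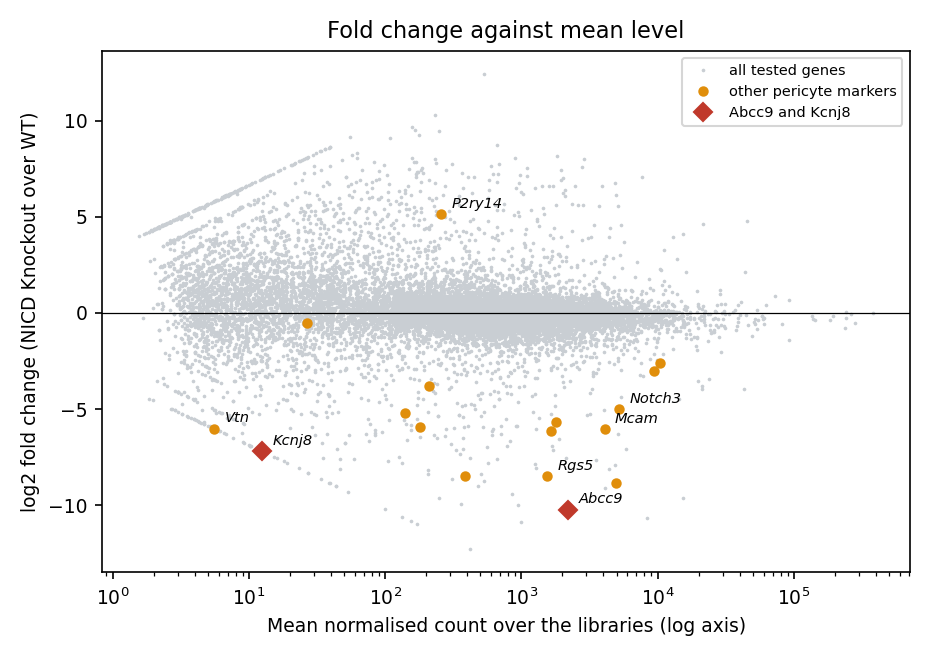
Log2 fold change, NICD Knockout over WT, against the mean normalised count over the libraries (log axis) for all tested genes (grey), with Abcc9 and Kcnj8 as red diamonds and the other tested pericyte markers as orange circles. Abcc9 lies at -10.22 with a mean of 2197, and Kcnj8 lies at -7.19 with a mean of 12.5 on the lower diagonal edge of the cloud.

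The genes directly beside the pair did not share its direction. Ldhb, the lactate dehydrogenase B gene on the Kcnj8 side, rose 2.52-fold by the authors' deposited table (log2 fold change 1.33 with an SE of 0.29, adjusted p = 2.48e-05 from DESeq2). Cmas, which activates sialic acid and lies on the Abcc9 side, rose 1.73-fold by the authors' deposited table (log2 fold change 0.79 with an SE of 0.12, adjusted p = 3.44e-10 from DESeq2). C2cd5 and the ethanolamine kinase gene Etnk1, further on that side, rose 3.01-fold and 2.69-fold by the authors' deposited table. Of the 10 tested genes on each side, 11 of 20 rose and 4 fell, and the median log2 fold change was 0.85 by the authors' deposited table, while the median of all tested genes was 0.02. The share higher, 55.0%, stands against 25.4% of all tested genes, of which 25.1% were lower. With 20 genes on each side, the Ldhb side had 8 higher and 8 lower with a median of -0.18, and the Cmas side 13 higher and 1 lower with a median of 0.74.

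The 4 neighbours that fell were Pde3a, Sox5, Plekha5 and Aebp2. Pde3a, a phosphodiesterase that breaks down cyclic AMP and is active in vascular smooth muscle, fell 512.5-fold by the authors' deposited table (log2 fold change -9.00 with an SE of 0.62), to 1.88 normalised counts in NICD Knockout cells against 962.7 in WT cells. Sox5, a transcription factor gene of cartilage, fell 67.1-fold by the authors' deposited table (log2 fold change -6.07 with an SE of 0.43). Plekha5 and Aebp2 had log2 fold changes of only -0.70 and -0.76 by the authors' deposited table. Between Pde3a and Kcnj8 lie 7 tested genes, of which 5 rose (71.4%, against 25.4% of all tested genes). Between Abcc9 and Sox5 lie 3, which all rose. Pde3a and Sox5 are the nearest genes that fell on each side. That none between them fell follows from this choice of ends, and nothing is read from it. The antisense gene 5330439B14Rik, which lies across Abcc9, was not tested here and strand is not stated, so reads of Abcc9 and of this gene cannot be told apart.

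**Figure D3:**
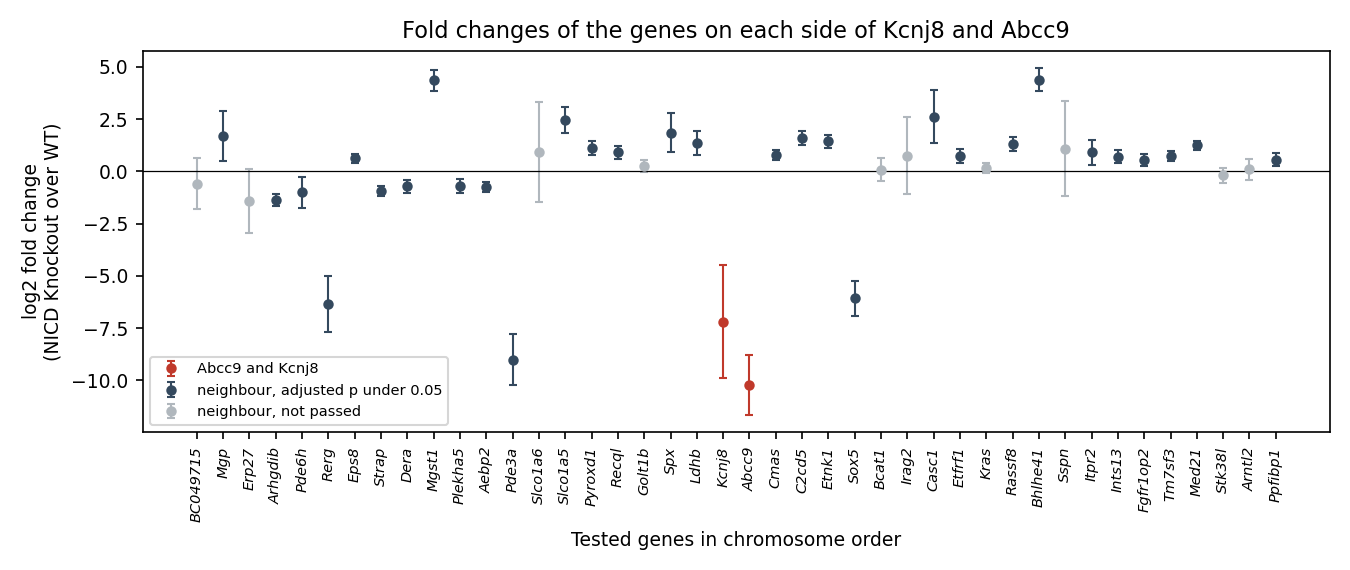
Log2 fold changes, NICD Knockout over WT, with 95% Wald intervals for Kcnj8 and Abcc9 (red) and the 20 tested genes on each side in chromosome order, dark where the adjusted p was under 0.05 and grey where it was not. The pair, Pde3a, Sox5 and Rerg lie below -6, while the genes next to the pair lie above 0.

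None of the other tested Kcnj and Abcc genes fell as far as Abcc9 or Kcnj8. Neither Kcnj11 nor Abcc8 was tested, so the pancreatic form of the channel is not analysed here. Of 14 other Kcnj genes, 2 were tested, both with low mean normalised counts (32.7 for Kcnj4 and 11.9 for Kcnj14). Kcnj4, an inward rectifier of neurons and heart, fell 3.49-fold by the authors' deposited table (log2 fold change -1.80 with an SE of 0.46, adjusted p = 3.05e-04 from DESeq2). Kcnj14 rose 3.14-fold by the authors' deposited table, to 18.0 normalised counts in NICD Knockout cells against 5.73 in WT cells. Of 10 other Abcc genes, 6 were tested, with a median log2 fold change of 0.49. Among these 6, 3 rose (50.0%, against 25.4% of all tested genes) and 1 fell (16.7%, against 25.1%). The drug and glutathione conjugate exporter gene Abcc1 fell 1.80-fold by the authors' deposited table. The cyclic nucleotide exporter genes Abcc4 and Abcc5 rose 1.46-fold and 1.49-fold by the authors' deposited table. Abcc3 rose to 12.2 normalised counts in NICD Knockout cells and was fitted below 1 in WT cells. With WT cells set at 1, it was 12.2-fold higher from the authors' deposited table. Abcc10 and Abcc2 did not pass at log2 fold changes of -0.23 and 0.43 by the authors' deposited table.

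Genes for proteins that act on the channel had far smaller changes than Abcc9 and Kcnj8. Protein kinase A opens vascular channels and protein kinase C closes them, while ankyrins and caveolins place membrane proteins. Of 18 tested genes for these kinases, anchors and membrane partners, 9 fell (50.0%, against 25.1% of all tested genes) and 3 rose (16.7%, against 25.4%). The median log2 fold change was -0.30 by the authors' deposited table. Akap12, an anchor of protein kinase A, fell 3.44-fold, and the ankyrin gene Ank3 fell 2.63-fold by the authors' deposited table. Cav1, the main caveolin, fell 1.98-fold, and the regulatory subunit genes Prkar2a and Prkar2b fell 2.28-fold and 1.80-fold by the authors' deposited table. Prkca, Prkar1a and Ensa rose 1.33-fold, 1.17-fold and 1.46-fold by the authors' deposited table. Ensa encodes endosulfine alpha, first described as a ligand of sulfonylurea receptors. Prkaca, the catalytic subunit gene, had a log2 fold change of -0.33 by the authors' deposited table (adjusted p = 0.0348 from DESeq2), and this call was lost when fold changes were centred on expressed genes (adjusted p = 0.0770).

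Among receptors upstream of the channel, those that raise cyclic AMP had 5 of 10 tested genes lower and 2 higher by the authors' deposited table, and the median log2 fold change was -0.49. The 4 with a mean of at least 100 were all lower, with a median of -2.24. Vipr1, a receptor of vasoactive intestinal peptide, fell 9.28-fold, and Calcrl, which forms the CGRP receptor with a Ramp protein, fell 5.09-fold by the authors' deposited table. The partner gene Ramp3 fell 8.09-fold, the adenosine receptor gene Adora2a 4.37-fold and the prostacyclin receptor gene Ptgir 1.58-fold by the authors' deposited table. Vipr2 was fitted below 1 normalised count in WT cells. With WT cells set at 1, it was 25.2-fold higher in NICD Knockout cells from the authors' deposited table. Among 6 tested vasoconstrictor receptors, 3 fell (50.0%, against 25.1% of all tested genes) and 1 rose (16.7%, against 25.4%), with a median of -0.70. Ednra, the endothelin receptor of smooth muscle, fell 121.6-fold by the authors' deposited table, to 12.8 normalised counts in NICD Knockout cells against 1551 in WT cells (log2 fold change -6.93 with an SE of 0.26, adjusted p = 5.09e-148 from DESeq2). The thrombin receptor gene F2r and the nucleotide receptor gene P2ry2 fell 2.46-fold and 2.26-fold, and Adra1b rose 2.12-fold by the authors' deposited table.

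Other potassium channels of vascular smooth muscle changed both ways. Of 9 tested genes, 4 fell (44.4%, against 25.1% of all tested genes) and 3 rose (33.3%, against 25.4%). Their median log2 fold change was -0.81 by the authors' deposited table. Kcnmb1, the smooth muscle subunit that tunes calcium-activated potassium channels, fell 28.4-fold by the authors' deposited table, to 120.3 normalised counts in NICD Knockout cells against 3409 in WT cells. Kcnma1, which encodes the pore that Kcnmb1 serves, was not tested here. Kcnab1 fell 47.6-fold, Kcnab2 1.75-fold and Kcnk3 3.07-fold by the authors' deposited table, and the call of Kcnk3 was lost after centring on expressed genes (adjusted p = 0.0553). Kcnn4, the intermediate-conductance calcium-activated channel of proliferating cells, rose 89.5-fold by the authors' deposited table, to 737.9 normalised counts in NICD Knockout cells against 8.25 in WT cells. Kcnn3 rose 19.5-fold by the authors' deposited table.

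The list of calcium entry and release channels had 6 of 15 tested genes lower and 4 higher by the authors' deposited table, and its median was -0.21. The share higher, 26.7%, was near the 25.4% of all tested genes, while the share lower was above the 25.1% of all tested genes. Ano1, a chloride channel gene, is among those lower and is counted again among the pericyte markers below. The T-type channel gene Cacna1h fell 58.0-fold, the cation channel gene Trpc6 25.9-fold and the chloride channel gene Ano1 13.9-fold by the authors' deposited table. The L-type pore gene Cacna1c and its partner Cacna2d1 fell 2.98-fold and 2.02-fold by the authors' deposited table. The release and store-entry genes Itpr1, Itpr2, Orai1 and Stim1 rose 1.98-fold, 1.87-fold, 1.66-fold and 1.47-fold by the authors' deposited table.

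**Figure D4:**
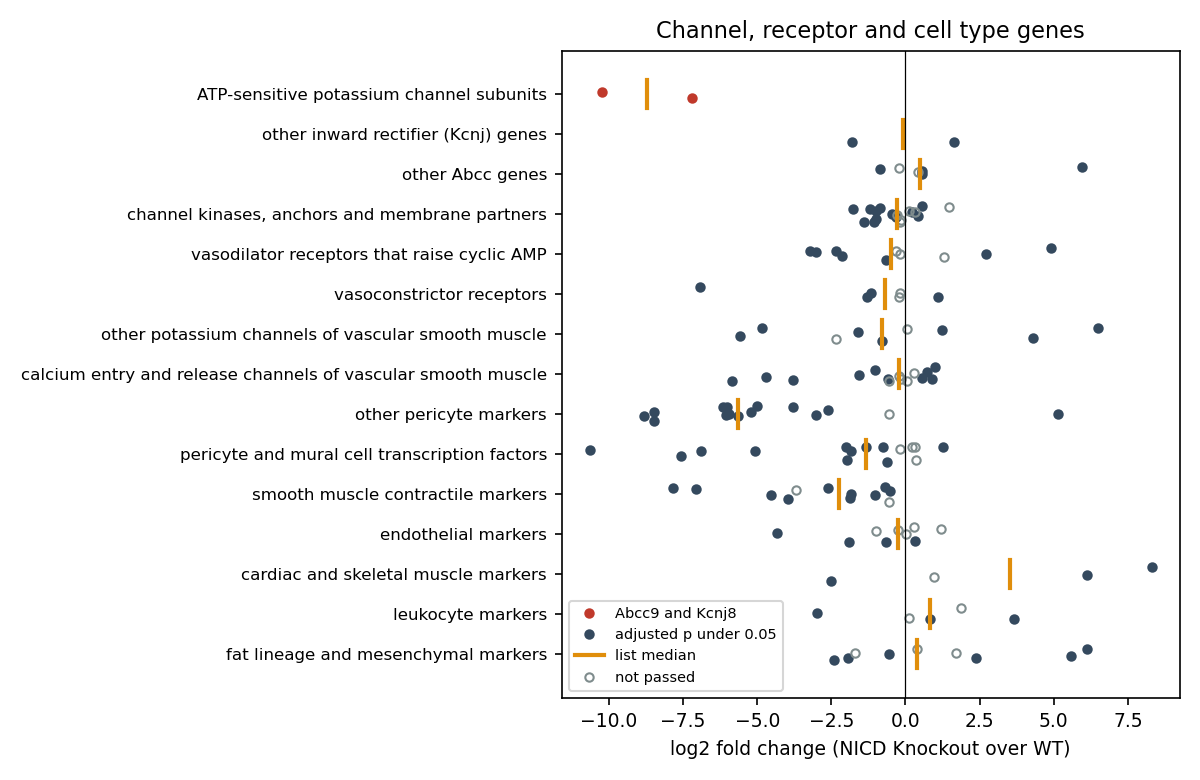
Log2 fold changes, NICD Knockout over WT, of the tested genes of each list, with filled circles for an adjusted p under 0.05, open circles for genes that did not pass and a bar at the list median. The 2 channel genes (red) lie at -10.22 and -7.19, and the other pericyte markers have a median of -5.64.

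Other markers of pericytes were lower with the pair. Of 15 tested, 13 fell (86.7%, against 25.1% of all tested genes) and 1 rose (6.67%, against 25.4%). Their median log2 fold change was -5.64 by the authors' deposited table (-5.21 with levels below 1 normalised count set at 1), against 0.02 for all tested genes. Their summed fitted level was 6171 normalised counts in NICD Knockout cells and 74737 in WT cells. Pdgfrb and Cspg4, named after their values were seen, fell only 8.11-fold and 6.15-fold by the authors' deposited table. These 2 genes kept 2081 and 2939 normalised counts in NICD Knockout cells, against 16873 and 18064 in WT cells. Cox4i2 and Ndufa4l2, respiratory chain genes of pericytes, fell 71.0-fold and 455.7-fold by the authors' deposited table. The adhesion gene Mcam fell 66.5-fold, the guanylate cyclase gene Gucy1b1 50.0-fold and Notch3 31.8-fold by the authors' deposited table. Rgs5, a regulator of G protein signalling named after its value was seen, had 8.65 normalised counts in NICD Knockout cells and 3093 in WT cells, and fell 357.6-fold by the authors' deposited table. The member that rose was the UDP-sugar receptor gene P2ry14, 35.5-fold higher by the authors' deposited table. Anpep did not pass (log2 fold change -0.54, adjusted p = 0.831 from DESeq2) by the authors' deposited table.

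Smooth muscle contractile genes had 10 of 12 tested members lower (83.3%, against 25.1% of all tested genes) by the authors' deposited table. None was higher (against 25.4%), and the median log2 fold change was -2.24. Tagln and Actg2 fell 134.3-fold and 229.1-fold, and Acta2, Smtn and Cald1 fell 15.6-fold, 3.56-fold and 2.02-fold by the authors' deposited table. Cnn1 and Mylk did not pass at log2 fold changes of -3.69 and -0.55 by the authors' deposited table. Transcription factors of mural cells had 10 of 15 lower (66.7%, against 25.1%) and 1 higher (6.67%, against 25.4%) by the authors' deposited table. Their median was -1.33. Heyl, Hey2 and Hey1, repressors that Notch switches on, fell 1610-fold, 192.0-fold and 119.8-fold by the authors' deposited table. The factor genes Ebf1 and Foxs1 fell 3.93-fold and 3.54-fold, and Foxf2, a factor of brain pericytes, rose 2.39-fold by the authors' deposited table. Tbx18, named after its value was seen and used to mark mural cells, fell only 1.53-fold by the authors' deposited table.

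Markers of other cell types moved in both directions, and their part in the values of Abcc9 and Kcnj8 was not tested. Of 9 tested endothelial markers, 3 fell and 1 rose by the authors' deposited table, with summed fitted levels of 11956 normalised counts in NICD Knockout cells and 19561 in WT cells. These shares, 33.3% lower and 11.1% higher, stand against 25.1% and 25.4% of all tested genes, and the call of Egfl7 was lost after centring on expressed genes (adjusted p = 0.0642, 0.0433 before). Flt1 and Eng made up most of both sums, and Flt1 fell 20.4-fold by the authors' deposited table. Pecam1 had 15.2 normalised counts in NICD Knockout cells and 6.69 in WT cells, and Cdh5 had 21.9 in NICD Knockout cells and 21.7 in WT cells. Of 12 markers of heart and skeletal muscle, tissues that also use Abcc9, 8 were not tested, Myh6, Myod1 and Ckm among them. Their 4 tested members summed to 1393 normalised counts in NICD Knockout cells and 7501 in WT cells, nearly all from Tnnt2, which fell 5.75-fold by the authors' deposited table. Ttn and Myh7 rose by the authors' deposited table, 62.1-fold and 13.8-fold with WT cells set at 1 normalised count. The 5 tested leukocyte markers had 2 higher and 1 lower by the authors' deposited table and summed to 2442 normalised counts in NICD Knockout cells and 381.4 in WT cells. Cd68 alone held 2238 of that sum in NICD Knockout cells. Ptprc had 13.7 normalised counts in NICD Knockout cells and 3.74 in WT cells, and Csf1r had 22.5 and 20.8. Neither Ptprc nor Csf1r passed.

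The labelled fat lineage was only partly visible. Adipoq and Plin1, defining genes of mature fat cells, were not tested here. Of 9 tested fat lineage and mesenchymal markers, 3 rose and 3 fell by the authors' deposited table, and the median log2 fold change was 0.40. The share was 33.3% each way, against 25.4% higher and 25.1% lower of all tested genes. Fabp4, the progenitor antigen gene Ly6a and Pdgfra rose 70.3-fold, 47.7-fold and 5.14-fold by the authors' deposited table. Lpl, Col1a1 and Vim fell 5.38-fold, 3.83-fold and 1.47-fold by the authors' deposited table. Pparg, the master regulator of fat cells, had 4.39 normalised counts in NICD Knockout cells and 14.4 in WT cells and did not pass (adjusted p = 0.0542 from DESeq2).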

How the data were processed

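Total RNA of 6 mLPS1 libraries was extracted with TRI Reagent, per the labels' protocols. Salmon, DESeq2 and the build mm39 stand in the submitters' processing notes, without versions, settings or filters. The authors deposited for each gene, per the file headers, a mean normalised count (a signal), a log2 fold change and its SE on the log2 scale, a Wald score, a p-value and an adjusted p-value. Depth per library is unknown. Recomputing the deposited statistics gave differences of at most 1.56e-13. Of 14472 rows, 2 have no p. The calls are the authors' DESeq2 adjusted p under 0.05, and no test was fitted here because the table gives no value per library.

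Fitted group levels were derived from the mean and fold change, assuming 3 libraries per group. Intervals are the fold change plus or minus 1.96 SE. Levels under 1 normalised count per library (3 over the group) were also set at 1. GENCODE M21 (GRCm38) matched 14456 rows (99.9%) and gave gene order and transcript lengths. Members, lists and tests were chosen with earlier results of these data known, so no list is independent support. Named genes were the members, every tested Kcnj and Abcc gene, the 10 tested genes on each side, the 5 nearest to Abcc9 by fold change (the same rule for Kcnj8 was not used), and in each list up to 5 called genes of smallest p per direction, with exceptions stated, and some of these genes are not reported here. Of the neighbours, those not described are summarised by counts. The Wald test and its adjustment were tested on simulated data. Both promoters matched in RefSeq. Alternatives changed the adjustment, the filter on low means, the centre, the size tested, the floor and the number of neighbours. Python 3.11.15, numpy 2.4.6, pandas 2.3.3, scipy 1.17.1 and matplotlib 3.10.9 were used.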

Additional observations from a re-analysis of the deposited data

How the results depend on the processing

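Of 47 alternative values, 37 stayed within 1.5 times the main count of calls or, for Abcc9 and Kcnj8, within 1 SE of their log2 fold change. Both genes stayed lower, but the settings run for them could not have turned fold changes of this size. Nothing is read from that. With the NICD Knockout level set at 1 normalised count, Kcnj8 had a log2 fold change of -4.64, and Abcc9, fitted above it, was not altered. Subtracting the median of 10 neighbours on each side gave -11.07 for Abcc9 and -8.04 for Kcnj8. Over all genes 7303 passed, 3675 higher and 3628 lower, against 3175 with Bonferroni adjustment (1516 higher and 1659 lower) and 1606 when the change had to exceed 2-fold (930 higher and 676 lower). Without genes of a mean under 100, 2577 were higher and 3192 lower. Among the neighbours 15 of 20 passed, against 4 when the change had to exceed 2-fold, 8 with 5 genes on each side and 30 with 20 on each side, where the number of genes itself differs. From the fewer genes of that filter, 4 vasodilator receptors passed (all lower, median -2.24), 4 other potassium channel genes (1 higher, 3 lower) and 1 heart and skeletal muscle marker, where the median turned to -2.52, against 3.53 over the 4 tested. The filter left no other Kcnj gene and also removes Kcnj8. Leaving out single libraries was not run, since the table gives no value per library. No paired analysis was possible because the table holds no values of single libraries. The SE of Kcnj8 was 1.37 at a mean of 12.5, above 92.2% of genes of similar mean. Depth per library is unknown.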
